A study of Mus musculus with 6 samples.

Results

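Sinusoidal endothelial cells line the liver capillaries, and RNA of their genes was present at a low level in all 6 hepatocyte libraries. Counts on 10 such genes, Stab1, Stab2, Lyve1, Clec4g, Fcgr2b, Oit3, Kdr, Ptprb, Eng and Pecam1, made up 0.0333% ± 0.0077 (SD, n = 3) of the gene counts before surgery and 0.0206% ± 0.00169 (SD, n = 3) in livers taken 48 h after partial hepatectomy (PHx). Each of the 10 genes had a lower mean at 48 h, by 1.54-fold for Pecam1 to 2.84-fold for Oit3 in the fitted model. The genes were taken by name from the GENCODE M21 annotation and matched by versioned Ensembl identifier, 10 of the 55450 genes in the count files. They were chosen with the difference between the time points already known, so their difference between 0 h and 48 h is given below as a description. The number of them called by the test across all genes stands once, beside the share of all genes called, and nothing is read from it.

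The libraries are bulk RNA-Seq of primary hepatocytes from C57BL/6 mice (C57BL/6J in the study's methods) on a normal diet, with 3 libraries made before any damage (0 h) and 3 made 48 h after PHx, an operation in which most of the liver is cut away and the rest regrows. The mice were male in the study's methods and 10 to 12 weeks old in the sample labels, and each library is a separate preparation. No sham-operated group is among these samples, so surgery and regrowth cannot be told apart. The hepatocytes were released by perfusing the liver with collagenase in a 2-step procedure, which also frees other liver cells. No marker-based sort is described for these libraries. From published signatures of hepatocytes, Kupffer cells and endothelial cells, the paper estimated that nearly all cells in each bulk replicate were hepatocytes.

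Endothelial cells of the liver sinusoids differ from those of most other capillaries in having open pores and no continuous basement membrane. They take up waste macromolecules from the blood through scavenger receptors, lectins and Fc receptors, and they send growth and patterning signals to the neighbouring hepatocytes. After PHx the sinusoidal endothelium is known to be rebuilt while the liver regrows, under control of the VEGF, angiopoietin and Notch pathways. In bulk libraries, fewer endothelial cells, in the liver or in the preparation, and less RNA per endothelial cell cannot be told apart.

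Gene counts summed to 31419443 to 36346220 per library. Levels are given as CPM (counts divided by the library total and put on a common scale) adjusted by TMM, a normalization that assumes that most genes do not change. The 10 hepatocyte marker genes examined, with Alb (albumin) the highest, summed to between 72637 and 124997 CPM in the 6 libraries, so the labelled cell type was plainly present. Markers of other cells were at or near 0 for lymphocytes (summed level 0.0892 to 0.392 CPM over 7 genes, with Cd3d at 0 counts in all libraries) and neutrophils (0.0904 to 1.06 CPM over 8 genes, with Mpo, Ltf and Retnlg at 0). The neutrophil sum was higher in all 48 h libraries (0.209 ± 0.174 CPM at 0 h and 0.886 ± 0.255 at 48 h, SD, n = 3). None of the 8 genes had enough counts to be tested, and with no filter on low counts 2 were higher. Among the 5 platelet genes, Gp9 and Gp1bb had 0 counts in all libraries and Pf4 at most 4, whereas Itga2b had 85 to 104 counts in each library and did not pass (log2 fold change -0.26, adjusted p = 0.327 in edgeR). Of the bile duct markers, Krt7, Krt19 and Epcam had at most 4 counts in any library, whereas Sox9 stood at 7.35 to 19.7 CPM and did not pass (log2 fold change 0.41, adjusted p = 0.249 in edgeR). Spp1, which other cells also express, passed as higher at 48 h (1.51, adjusted p = 0.0212), but its time points overlapped and the call was lost without 0 h replicate 2, 0 h replicate 3 or 48 h replicate 3. Among 6 erythroid genes, Hbb-bt was at 0 counts in all libraries and the other globin genes at most 6, and Alas2, the first enzyme of haem synthesis in red cell precursors, was lower (-1.34, adjusted p = 0.00176). Kupffer cell and stellate cell markers were present, and their values stand beside the results they touch. Library 0 h replicate 1 stood apart from the other libraries of undamaged liver in the endothelial genes. Some results, the fold changes of the 10 genes among them, are therefore also given without it.

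The promoters of 6 of the 10 genes were found in the RefSeq table of GRCm38.p6. The 250 bases before each RefSeq start were searched on both strands for letters of sites bound by ETS factors, a family active in endothelial cells, and by GATA factors. One ETS form searched was CAGGAA. The other ETS form of the search was spelled CCGGAA. For GATA factors the letters were AGATAA. The promoters of Stab1, Stab2, Clec4g and Kdr held an ETS motif, 4 of 6, against 35.1% of 32851 promoters of the same length. CAGGAA was found in 3 of 6 and CCGGAA in 1 of 6, against 25.7% and 12.0% of all promoters. AGATAA was found in 0 of 6, against 9.99% of all promoters. The 4 promoters with a match are shown so that the letters can be seen in place. Bases that GENCODE places inside the gene were left off, and capitals mark the ETS motif on either strand. The stretches, all on the minus strand and written 5′ to 3′, are chr14:31168642-31168891 for Stab1, chr10:87008026-87008192 for Stab2, chr8:3720652-3720901 for Clec4g and chr5:75978459-75978705 for Kdr.
Stab1: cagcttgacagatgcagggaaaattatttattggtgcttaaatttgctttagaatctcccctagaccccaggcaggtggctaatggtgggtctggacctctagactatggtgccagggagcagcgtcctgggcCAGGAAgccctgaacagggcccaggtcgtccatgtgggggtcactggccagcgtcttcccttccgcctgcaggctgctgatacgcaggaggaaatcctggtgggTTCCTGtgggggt
Stab2: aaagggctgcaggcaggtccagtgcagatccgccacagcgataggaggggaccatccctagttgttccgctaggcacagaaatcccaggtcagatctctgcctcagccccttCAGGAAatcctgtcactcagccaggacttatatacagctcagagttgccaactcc
Clec4g: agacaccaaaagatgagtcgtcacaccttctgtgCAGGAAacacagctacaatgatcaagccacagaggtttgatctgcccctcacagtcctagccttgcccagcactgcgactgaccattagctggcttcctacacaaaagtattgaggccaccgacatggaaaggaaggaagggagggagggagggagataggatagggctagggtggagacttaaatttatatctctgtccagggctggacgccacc
Kdr: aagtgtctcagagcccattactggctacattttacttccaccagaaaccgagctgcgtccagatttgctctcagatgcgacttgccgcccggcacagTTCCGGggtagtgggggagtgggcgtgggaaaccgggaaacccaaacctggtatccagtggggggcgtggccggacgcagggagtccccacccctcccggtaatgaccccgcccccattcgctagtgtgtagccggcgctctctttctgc
These matches describe the letters in the windows and do not show that a factor binds there.

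The scavenger receptors Stab1 and Stab2 (stabilin-1 and stabilin-2) clear modified proteins and, for Stab2, hyaluronan from the blood. Stab2 (ENSMUSG00000035459.18, chromosome 10, 86841198 to 87008025, GRCm38) stood at 52.1, 75.4 and 68.1 CPM in replicates 1, 2 and 3 at 0 h and at 35.3, 41.8 and 41.1 CPM at 48 h. All 3 libraries at 48 h lay below all 3 at 0 h, with 0 h replicate 1 closest to them. The log2 fold change of Stab2 from 0 h to 48 h was -0.73 (standard error 0.141), from means of 65.2 ± 11.9 to 39.4 ± 3.55 CPM (SD, n = 3). Stab1 (ENSMUSG00000042286.13, chromosome 14, 31139013 to 31168641), which macrophages also express, stood at 28.0, 45.3 and 42.7 CPM at 0 h and at 23.6, 24.6 and 24.7 CPM at 48 h. The 3 libraries at 48 h were almost level, and they did not overlap with those at 0 h. Its log2 fold change was -0.67 (standard error 0.162).

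Lyve1, Clec4g and Oit3 encode surface or secreted proteins that mark sinusoidal cells. Lyve1 (ENSMUSG00000030787.4, chromosome 7, 110850607 to 110863239), a hyaluronan receptor shared with lymphatic vessels, had the fewest counts, 71, 119 and 140 at 0 h and 78, 43 and 55 at 48 h. Its lowest count, 43, has an exact Poisson interval of 31.1 to 57.9 (95%, counting error only). In CPM, Lyve1 stood at 2.42, 3.84 and 4.22 at 0 h and at 2.32, 1.20 and 1.57 at 48 h. The time points did not overlap, but 48 h replicate 1 lay only just below 0 h replicate 1. The log2 fold change of Lyve1 was -1.04, with the largest standard error of the 10 genes, 0.292. Clec4g (ENSMUSG00000074491.9, chromosome 8, 3707064 to 3720651), a C-type lectin, stood at 12.54, 28.6 and 23.8 CPM at 0 h and at 9.51, 12.57 and 11.8 CPM at 48 h. Its time points overlapped, because 0 h replicate 1 lay just below 48 h replicate 2, and its log2 fold change was -0.94 (standard error 0.253). Oit3 (ENSMUSG00000009654.4, chromosome 10, 59422958 to 59441778) stood at 12.8, 18.0 and 19.7 CPM at 0 h and at 6.89, 5.60 and 5.32 CPM at 48 h. Its libraries were the most widely separated of the 10 genes, with a log2 fold change of -1.51 (standard error 0.182).

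Fcgr2b (ENSMUSG00000026656.15, chromosome 1, 170958617 to 170976547) encodes the inhibitory Fc receptor through which sinusoidal cells remove immune complexes, and it is also expressed by B cells and macrophages. It stood at 21.3, 38.0 and 33.5 CPM at 0 h and at 13.6, 14.6 and 14.8 CPM at 48 h, without overlap, and its log2 fold change was -1.11 (standard error 0.186). Of the 50-base words in its transcripts, 6.95% also stand in transcripts of other genes, mainly its neighbour in the family, Fcgr3. Counts on Fcgr3 were low (1.68 ± 0.395 CPM at 0 h and 1.36 ± 0.158 at 48 h, SD, n = 3) and did not pass the test (log2 fold change -0.31, adjusted p = 0.353). The share of such words was at most 1.96% for the other 9 genes.

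Kdr, Ptprb and Eng are receptors through which endothelial cells read growth signals. Kdr (ENSMUSG00000062960.10, chromosome 5, 75932827 to 75978458), the main VEGF receptor, stood at 26.6, 44.4 and 39.8 CPM at 0 h and at 14.9, 19.9 and 18.4 CPM at 48 h. The time points did not overlap, and the log2 fold change of Kdr was -1.06 (standard error 0.184). Ptprb (ENSMUSG00000020154.10, chromosome 10, 116275523 to 116389535), a phosphatase that restrains the angiopoietin receptor Tek, had the most counts and stood at 62.8, 97.5 and 104 CPM at 0 h. At 48 h it stood at 49.6, 47.1 and 41.9 CPM, below all libraries at 0 h, with a log2 fold change of -0.93 (standard error 0.174). Eng (ENSMUSG00000026814.16, chromosome 2, 32646595 to 32682669), endoglin, the co-receptor for circulating BMP ligands, stood at 37.2, 48.3 and 51.2 CPM at 0 h and at 21.8, 26.9 and 24.6 CPM at 48 h. It did not overlap either, and its log2 fold change of -0.90 had the smallest standard error of the 10 genes, 0.138. Pecam1 (ENSMUSG00000020717.19, chromosome 11, 106654217 to 106750628), the adhesion molecule CD31, is found on all endothelium and on platelets and some leukocytes. It stood at 7.09, 11.7 and 11.9 CPM at 0 h and at 6.24, 6.10 and 7.63 CPM at 48 h. Here the time points overlapped, with 48 h replicate 3 above 0 h replicate 1, and the log2 fold change of -0.62 (standard error 0.205) was the smallest of the 10.

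**Figure D1:**
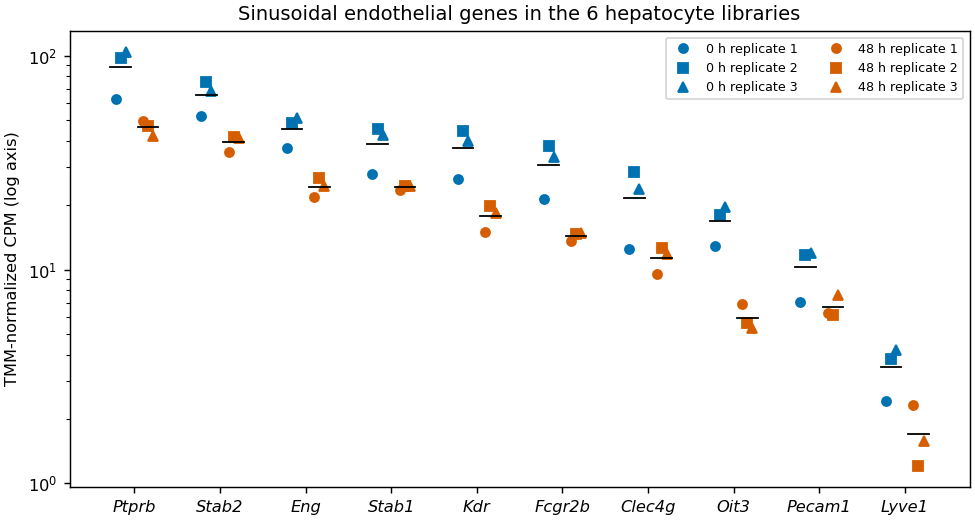
Level of each of the 10 sinusoidal endothelial genes (TMM-normalized CPM, log axis) in the 3 libraries at 0 h (blue) and the 3 at 48 h after PHx (orange); marker shape gives the replicate and the black line the mean. Only for Clec4g and Pecam1 did the libraries of the time points overlap, and 0 h replicate 1 was the lowest 0 h library for all 10 genes.

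In 8 of the 10 genes all libraries at 48 h lay below all at 0 h, and this held for 25.0% of the 17037 genes tested. The opposite order, all libraries at 48 h above all at 0 h, held for 0 of the 10 and for 27.8% of all genes. In edgeR, 10 of 10 were called lower at 48 h (adjusted p below 0.05), beside 19.3% of all genes called lower and 40.7% called in either direction. The call was lost for Pecam1 with library size only and without 0 h replicate 2, 0 h replicate 3, 48 h replicate 1 or 48 h replicate 2, for Lyve1 without 0 h replicate 3 or 48 h replicate 2, and for Clec4g without 0 h replicate 2. The genes were chosen on this difference, so neither the calls nor their losses are read as a result. The median log2 fold change of the 10 genes was -0.93, and that of all genes tested was -0.00326. With scaling by library size only, the median of all genes moved to 0.20 and that of the 10 genes to -0.73. The log2 fold change of Pecam1 was -0.42 with library size only.

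Compared per kilobase of exon, the scale on which levels of different genes can be set side by side, Eng was the highest at 0 h (11.3 ± 1.83 CPM per kb, SD, n = 3). Clec4g followed at 8.78 ± 3.34, Stab2 at 7.45 ± 1.36 and Ptprb at 6.61 ± 1.66. Oit3 at 6.04 ± 1.28, Fcgr2b at 5.34 ± 1.49, Kdr at 4.09 ± 1.02 and Stab1 at 3.76 ± 0.905 came next. Each of these genes overlapped with its neighbours in the order over the 3 libraries. Within each 0 h library, however, Eng stood above Clec4g, Ptprb above Oit3, Fcgr2b above Kdr and Kdr above Stab1. The order of Clec4g and Stab2, of Stab2 and Ptprb and of Oit3 and Fcgr2b changed between libraries. Pecam1 at 1.64 ± 0.438 and Lyve1 at 1.20 ± 0.325 lay apart at the lower end, with all libraries of Pecam1 below those of Stab1. At 0 h the 10 genes covered percentiles 39.1 (Lyve1) to 84.4 (Eng) of all genes tested on this scale, and at 48 h percentiles 24.2 to 73.2. At 48 h the first 4 places and the last 2 were unchanged. Oit3 moved from rank 5 to rank 7 and Stab1 from rank 8 to rank 6, although both overlapped at 48 h with a neighbour in the order.

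The mixture of the 10 genes was also compared, as the share of each in their summed counts. Ptprb took 24.6% ± 1.33 of the counts on the 10 genes at 0 h and 24.1% ± 2.63 at 48 h (SD, n = 3 here and below), and Eng took 12.9% ± 1.19 and 12.7% ± 0.79. Clec4g, at 5.89% ± 1.09 and 5.87% ± 0.608, also kept a share within the spread of its libraries. Stab2 (18.4% ± 1.38 and 20.5% ± 1.15) and Lyve1 (0.971% ± 0.076 and 0.894% ± 0.336) overlapped between the time points too. The share of Stab1 was higher at 48 h, at 10.8% ± 0.192 and 12.7% ± 0.335, without overlap between the libraries. The share of Oit3 was lower at 48 h, at 4.73% ± 0.308 and 3.11% ± 0.558, again without overlap. Fcgr2b (8.58% ± 0.589 and 7.47% ± 0.207) and Kdr (10.3% ± 0.44 and 9.21% ± 0.954) had lower shares and Pecam1 (2.84% ± 0.145 and 3.47% ± 0.471) a higher one, each without overlap. These shares sum to 100% in each library, so they are not independent of one another.

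**Figure D2:**
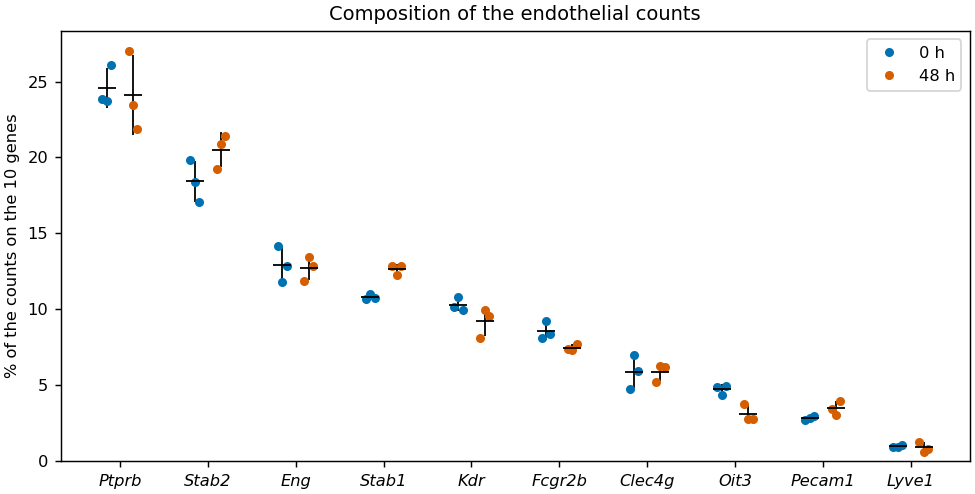
Share of each gene in the counts on the 10 sinusoidal endothelial genes (%), for the 3 libraries at 0 h (blue) and at 48 h (orange); horizontal ticks and bars are the mean and SD. Ptprb, Eng and Clec4g have nearly the same mean share at both times, whereas Oit3 goes from 4.73% to 3.11% and Stab1 from 10.8% to 12.7%.

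Differences between libraries of the same time point were not used to choose the genes, and at 0 h they were shared by all 10. Relative to the mean of the 0 h libraries on the log2 scale, 0 h replicate 1 lay lower by 0.28 (Eng) to 0.70 (Clec4g), with a median deviation of -0.45. It was the lowest 0 h library for 10 of 10 genes, whereas it was the lowest for 30.2% of all genes tested. In 0 h replicates 2 and 3, all 10 genes lay above the mean, with median deviations of 0.23 and 0.20. The same library was lowest for 24 of 24 other genes expressed in endothelium generally and for 8 of 9 further sinusoidal genes. It was also lowest for 12 of 12 Kupffer cell markers (median deviation -0.35) and for 8 of 10 stellate cell markers (median deviation -0.48). It was the lowest for 7 of 10 hepatocyte markers too, with a median deviation of -0.06, and the median deviation of all genes tested was 0.01. At 48 h the libraries lay closer together for 9 of the 10 genes, the exception being Lyve1, and the median deviations of the 10 endothelial genes were -0.08, 0.03 and 0.03 in replicates 1, 2 and 3. Lyve1 spread most at 48 h, from -0.43 in replicate 2 to 0.48 in replicate 1. These deviations have no p-value, since the genes of a library share its preparation.

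**Figure D3:**
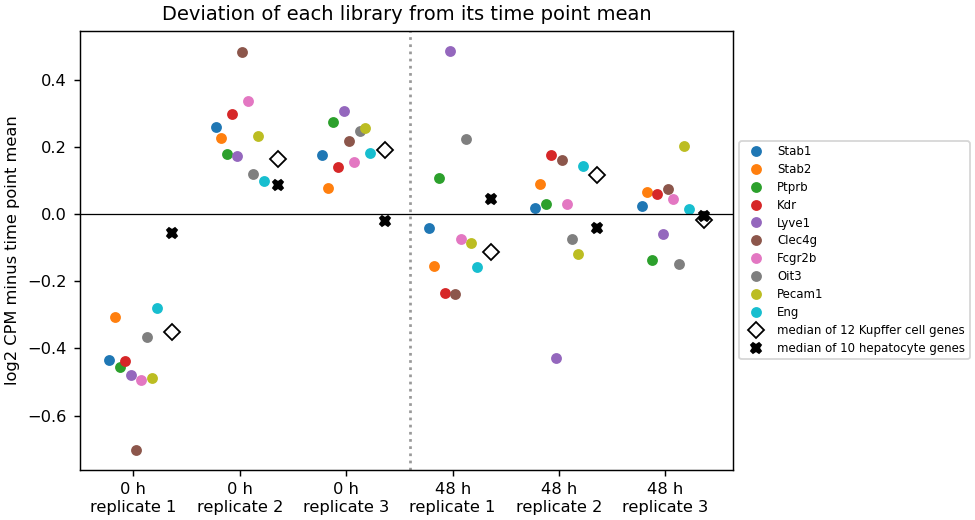
Deviation of each library from the mean of its time point (log2 CPM, prior count 2) for the 10 sinusoidal endothelial genes (coloured points), with the medians of 12 Kupffer cell genes (open diamonds) and 10 hepatocyte genes (crosses). In 0 h replicate 1 all 10 genes and the Kupffer cell median lie below 0, and the hepatocyte median lies near 0.

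Without 0 h replicate 1, the log2 fold changes of the 10 genes were further from 0, from -0.83 for Pecam1 to -1.68 for Oit3, with a median of -1.18. Leaving out 0 h replicate 3 instead gave a median of -0.84, the closest to 0 of the 6 fits with 1 library left out, and -0.51 for Pecam1.

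Summed over the 10 genes, the level was 263, 411 and 399 CPM in the 0 h libraries and 184, 200.3 and 192 CPM in the 48 h libraries. The 48 h libraries lay close together and below all 0 h libraries. The 12 Kupffer cell markers, for the resident macrophages of the sinusoids, summed to 86.6, 129 and 129 CPM at 0 h and to 128, 155 and 139 CPM at 48 h, so their time points overlapped. A ratio of these sums within a library does not depend on normalization, and it was added after the values were seen. The endothelial sum was 3.04, 3.20 and 3.09 times the Kupffer cell sum at 0 h and 1.44, 1.29 and 1.38 times at 48 h. The 0 h ratios thus spanned 5.29% from the lowest to the highest. The sums themselves were much lower in 0 h replicate 1 than in the others. With other denominators the 0 h span was 16.5% for the Kupffer cell gene Clec4f alone, 15.3% for the stellate cell sum and 40.4% for the hepatocyte sum. For the summed further sinusoidal and general endothelial genes it was 10.9% and 21.8%. Without Marco, the most changed Kupffer cell gene, the ratio was 3.13 ± 0.0792 at 0 h and 1.46 ± 0.0844 at 48 h (SD, n = 3). Cd5l, Cd68 and Cd163, also higher at 48 h, stayed in that sum. Against Clec4f alone, which did not pass (adjusted p = 0.712 in edgeR), the ratio was 23.6 ± 1.9 and 13.7 ± 1.69, without overlap. Against the further sinusoidal genes it was 1.28 ± 0.0665 and 1.14 ± 0.102, with overlap. Against the general endothelial genes it was 1.29 ± 0.138 and 1.06 ± 0.0387, without overlap. Against the 10 stellate cell markers the ratio was 3.51 ± 0.261 at 0 h and 2.43 ± 0.168 at 48 h (SD, n = 3), without overlap. Against the summed hepatocyte markers, 5 of whose 10 genes were themselves lower at 48 h, the ratio was 0.00311 ± 0.00053 at 0 h and 0.00248 ± 0.000339 at 48 h (SD, n = 3). Here the time points overlapped, but only through 0 h replicate 1, at 0.00252.

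**Figure D4:**
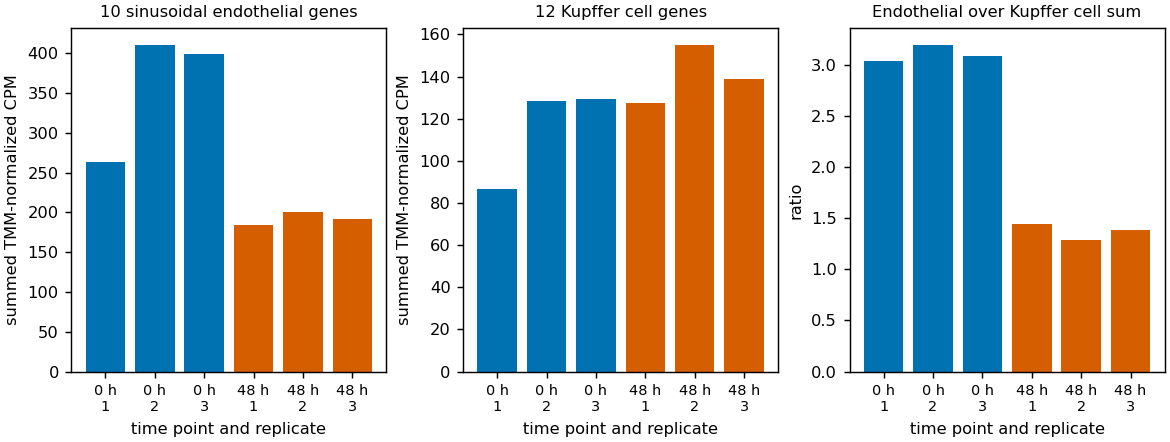
Summed level (TMM-normalized CPM) of the 10 sinusoidal endothelial genes and of 12 Kupffer cell genes, and the ratio of the sums, in each library at 0 h (blue) and 48 h (orange). The ratio lies between 3.04 and 3.20 in the 0 h libraries and between 1.29 and 1.44 in the 48 h libraries.

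None of the 12 Kupffer cell markers passed the test as lower at 48 h and 4 passed as higher (21.4% of all genes tested were higher), with a median log2 fold change of 0.20. These were Marco (log2 fold change 3.19, adjusted p = 1.01e-06 in edgeR), Cd5l (0.78, adjusted p = 0.00634), Cd68 (0.70, adjusted p = 0.00569) and Cd163 (0.64, adjusted p = 0.0312). Without 0 h replicate 1, 1 marker was lower and 3 were higher. Cd163 passed only with all libraries or without 0 h replicate 2, among the fits with 1 library left out. Of the 10 stellate cell markers, Reln was lower (log2 fold change -0.82, adjusted p = 0.00752) and the matrix genes Col1a1 (2.30, adjusted p = 4.58e-05) and Lum (1.04, adjusted p = 0.0277) were higher. Lum did not pass without 0 h replicate 1, 0 h replicate 3, 48 h replicate 2 or 48 h replicate 3. Without 0 h replicate 1, 4 stellate cell markers were lower and 1 was higher. The part of these cells in the endothelial gene levels was not tested.

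Other genes of the same endothelium were examined through lists drawn up from general knowledge, after earlier results of these data were known. Of 10 further sinusoidal genes, 9 could be tested and 6 were lower at 48 h, none higher, with a median log2 fold change of -0.65. Of all genes tested, 19.3% were lower and 21.4% higher, with a median of -0.00326, and these shares are the background for each list that follows. The mannose receptor Mrc1, which clears glycoproteins and is also found on macrophages, went from 31.1 ± 7.84 to 15.1 ± 1.06 CPM (log2 fold change -1.04, adjusted p = 0.000947 in edgeR). Dnase1l3, a secreted nuclease, went from 58.8 ± 13 to 28.1 ± 5.58 CPM (-1.06, adjusted p = 0.0012). Ehd3 (-0.90, adjusted p = 0.00352), F8, the coagulation factor VIII gene (-0.67, adjusted p = 0.00762), and the orphan receptor Gpr182 (-0.65, adjusted p = 0.00407) were lower as well. Gata4, the transcription factor that maintains sinusoidal identity, was only just past the threshold (-0.34, adjusted p = 0.0499) and did not pass in DESeq2, with library size only, with the replicate number as a block, or without any one of 0 h replicates 1 and 3 and 48 h replicates 1 and 2. Flt4, the VEGF-C receptor, did not pass (-0.53, adjusted p = 0.0811), although it passed without 0 h replicate 1, with the replicate number as a block and with no filter on low counts. Clec1b and Maf did not pass either, and Cd209b had too few counts to be tested.

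Of 24 genes expressed in endothelium generally, 12 were lower at 48 h, none was higher, and the median log2 fold change was -0.64. The largest decreases were in Robo4, a guidance receptor that stabilizes vessels (10.5 ± 2.51 to 3.35 ± 0.125 CPM; log2 fold change -1.65, adjusted p = 8.1e-05 in edgeR), Clec14a (-1.61, adjusted p = 0.000166) and Gpihbp1, which anchors lipoprotein lipase on capillaries (-1.43, adjusted p = 0.000983). The adhesion GPCR gene Adgrf5 fell by 0.93 on the log2 scale (adjusted p = 0.0029), and Cdh5, VE-cadherin, by 0.52 (adjusted p = 0.0174). Cdh5 did not pass with library size only, without 0 h replicate 3 or without 48 h replicate 1. The remaining 12 did not pass, among them the transcription factor genes Erg, Sox7, Sox17, Fli1 and Tal1, whereas the transcription factor gene Sox18 was lower (-0.80, adjusted p = 0.0103). With library size only, 6 of these 24 genes and 5 of the 9 further sinusoidal genes tested were lower, beside 2108 of all 17037 genes in that fit. Without 0 h replicate 1, 16 of the 24 were lower, beside 2688 of 16758 genes. The number was 9 without 0 h replicate 2 and 11 without 48 h replicate 3. It was 8 without 0 h replicate 3, 48 h replicate 1 or 48 h replicate 2.

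**Figure D5:**
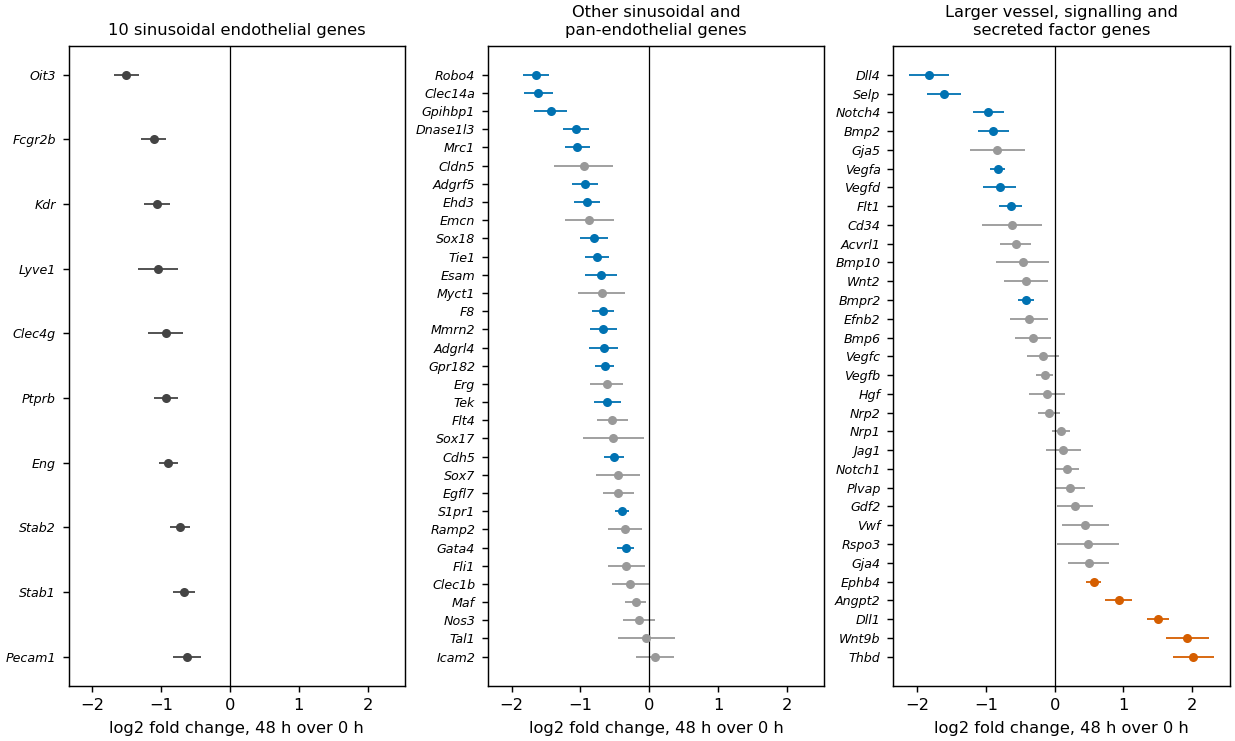
Log2 fold change from 0 h to 48 h with its standard error (bars) for the 10 sinusoidal endothelial genes (left, dark grey, no test), for other sinusoidal and pan-endothelial genes (middle) and for larger vessel, signalling and secreted factor genes (right); blue marks genes lower and orange genes higher (edgeR, adjusted p below 0.05), light grey neither. In the middle panel 18 of 33 genes are lower and none is higher, whereas the right panel holds genes of both kinds.

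Genes typical of larger vessels or of other capillaries did not follow one direction. Of 12, 9 could be tested, 1 was lower and 2 were higher, with a median log2 fold change of 0.23. Selp, P-selectin, was lower (2.14 ± 0.127 to 0.702 ± 0.137 CPM; log2 fold change -1.61, adjusted p = 0.000512 in edgeR). Thbd, thrombomodulin, rose from 2.12 ± 0.863 to 8.65 ± 2.17 CPM (2.02, adjusted p = 0.000456) and Ephb4, a receptor of venous endothelium, from 45.0 ± 5.18 to 66.8 ± 3.65 CPM (0.57, adjusted p = 0.00239). Plvap, the protein of the diaphragms that span endothelial pores and caveolae, stood at 14.6, 24.9 and 25.2 CPM at 0 h and at 23.9, 31.7 and 20.2 CPM at 48 h. Its time points overlapped and it did not pass (0.23, adjusted p = 0.435). Vwf, von Willebrand factor, stood at 0.85 ± 0.182 CPM at 0 h and 1.17 ± 0.46 at 48 h and did not pass (0.45, adjusted p = 0.325). The difference in fold change between the larger vessel genes and the sinusoidal genes was not tested, and bulk libraries do not show which cells the reads came from.

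Among ligands and receptors of the VEGF, angiopoietin and endoglin pathways, to which Kdr, Ptprb and Eng belong, and of the Notch pathway, 17 of 20 genes could be tested, 6 were lower, 2 were higher, and the median log2 fold change was -0.17. On the VEGF side, the ligand gene Vegfa, which hepatocytes themselves express, fell from 200.5 ± 9.14 to 113 ± 1.99 CPM (log2 fold change -0.83, adjusted p = 0.000156 in edgeR). The level of its receptor gene Kdr was given above. Vegfd (-0.80, adjusted p = 0.0228) and the receptor gene Flt1 (-0.64, adjusted p = 0.013) were lower too. Vegfd did not pass without 0 h replicate 2, 48 h replicate 1 or 48 h replicate 2, Flt1 did not pass without 0 h replicate 3, and neither passed with library size only. Vegfb, Vegfc, Nrp1 and Nrp2 did not pass. On the angiopoietin side, Angpt2, the ligand that loosens vessels, rose from 2.42 ± 0.394 to 4.62 ± 0.469 CPM (0.93, adjusted p = 0.0034). The receptor genes Tek (-0.61, adjusted p = 0.034) and Tie1 (-0.76, adjusted p = 0.00631), counted with the general endothelial genes above, were lower, but Tek did not pass with library size only or when any one library other than 0 h replicate 1 was left out. In the Notch pathway, the endothelial ligand gene Dll4 fell from 2.26 ± 0.292 to 0.631 ± 0.221 CPM (-1.83, adjusted p = 0.000687) and the receptor gene Notch4 by 0.96 on the log2 scale (adjusted p = 0.00694). Dll1, another ligand gene, rose from 5.42 ± 1.01 to 15.3 ± 1.75 CPM (1.50, adjusted p = 5.83e-05). Notch1 (0.18, adjusted p = 0.419) and Jag1 (0.13, adjusted p = 0.72) did not pass, and Jag2 had too few counts to be tested. Of the genes around endoglin, Bmpr2 was lower (-0.42, adjusted p = 0.0123; not with library size only or without 48 h replicate 2), and Acvrl1, Gdf2 and Bmp10 did not pass (adjusted p = 0.0694, 0.401 and 0.373).

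Of 6 genes for factors that sinusoidal cells send to hepatocytes or that act in the sinusoid, 1 was lower and 1 was higher. Bmp2, a signal for the iron hormone hepcidin, fell from 14.1 ± 4.63 to 7.62 ± 0.677 CPM (log2 fold change -0.89, adjusted p = 0.00984 in edgeR). Wnt9b, a Wnt ligand of endothelium around the central vein, had 8, 11 and 10 counts at 0 h and 46, 45 and 33 at 48 h (1.93, adjusted p = 0.000712). Wnt2 (-0.42, adjusted p = 0.338), Hgf (-0.11, adjusted p = 0.766), Bmp6 and Rspo3 did not pass. In the Fc receptor family, Fcgrt, the neonatal Fc receptor that hepatocytes also express, was lower (-1.15, adjusted p = 4.54e-05), and Fcgr1, Fcgr3, Fcgr4 and Fcer1g did not pass.

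The genes whose pattern over the 6 libraries was most like the mean of the 10 were found by the root mean square difference of centred log2 CPM, among 13322 other genes whose mean was 1 CPM or more. The 10 closest were Vsir (0.0633), Mrc1 (0.0678), Npr1 (0.0982), Fgd5 (0.0989), Hspg2 (0.0993), Vipr1 (0.107), Adgrf5 (0.112), Tinagl1 (0.112), Gbp4 (0.114) and Chst2 (0.117). The 10 endothelial genes themselves lay between 0.0898 (Ptprb) and 0.313 (Oit3) from their own mean, and the median over the other genes was 0.565. Mrc1 and Adgrf5 are in the lists of further endothelial genes, which make up 0.435% of the genes compared. The others of the 10 closest, with Vsir the closest of all, are in none of the gene lists examined. Of these, Fgd5 is an endothelial guanine nucleotide exchange factor, Hspg2 is perlecan of the basement membrane, and Npr1 is the receptor of atrial natriuretic peptide. The 100 closest genes held 10 genes of those lists. This likeness includes the difference between the time points and carries no test.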

How the data were processed

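The authors deposited raw counts of reads per gene for each library, 1 file a library. The submitters' processing notes name FastQC 0.11.5, Trim Galore 0.6.4, STAR 2.6, HTSeq 0.12.4, DESeq2 and the build mm10. The counting mode and strand setting are not given in the sources used here, so antisense genes, which overlap up to 5.93% of the exon bases of the 10 genes (Clec4g), cannot be separated. All 55450 identifiers matched GENCODE M21 with their version. Reads on no gene made up 24.3% to 32.7% of reads and stayed out of library sizes.

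edgeR 4.0.16 in R 4.3.3 was run with TMM and the quasi-likelihood test (time only) on 17037 genes, those that reached 10 counts in 3 or more of the libraries. Genes with a Benjamini-Hochberg adjusted p under 0.05 over all genes tested were called, and all adjusted p-values in the text come from this fit unless another tool is named. Standard errors are the log2 fold change divided by the square root of F. The fit was also run on simulated counts with known fold changes. These had the same dispersion for all genes and few, balanced changes, so that run does not test the scaling. DESeq2 1.42.0, limma 3.58.1 (voom), other scalings and filters, a replicate block and leaving out each library were alternatives. The 10 genes, the gene lists and the tests were chosen with earlier results of these data known. The text names the 10 genes, genes of the lists and the 10 genes most like them.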

Additional observations from a re-analysis of the deposited data

How the results depend on the processing

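The 10 sinusoidal endothelial genes had negative log2 fold changes in each of the 13 other fits, which their choice on this difference makes no sign of stability, and leaving out 1 library gave medians between -0.84 and -1.18. With 1 library left out, the log2 ratio of their summed level (48 h over 0 h, -0.90) ranged from -0.79 to -1.08, and it was -0.69 as a share of gene counts, with or without mitochondrial genes. Taken as a ratio to the Kupffer cell sum this value was -1.18, and as a ratio to the hepatocyte sum -0.33; both were chosen after seeing the data. Scaling by library size only moved the calls from 3638 higher and 3288 lower genes to 5309 and 2108, so that 71.6% rather than 52.5% of calls were higher. In the same setting the lower genes in the 5 lists of other endothelial genes went from 26 to 16, those in the sinusoidal and pan-endothelial lists from 18 to 11, and Eng to -0.69. By construction this scaling shifts all genes, by 0.20 at the median. Leaving out 1 library gave 19 to 30 lower genes in the 5 lists, 13 to 22 in the sinusoidal and pan-endothelial lists, and 2649 to 3395 higher and 2540 to 3166 lower genes in all. The fold changes of Hgf and Clec4f, near 0 in the fit as reported, reversed with library size only (0.0943 and 0.10), and leaving out 1 library gave -0.39 to 0.15 for Hgf and -0.32 to 0.0494 for Clec4f; the cause was not tested. Same-numbered libraries come from different mice, and their deviations correlated by 0.0335, -0.0674 and -0.138 over genes, so the numbers do not pair the samples. With the replicate block, the median of the 10 genes was -0.90, and 3237 genes were higher and 2884 lower; it changed the call of Gata4, Esam and Flt4 among the genes followed. Lyve1 (43 to 140 counts a library), Wnt9b (8 to 46) and some other genes rest on few counts, and the effect of depth was not tested.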
